A study of Homo sapiens with 10 samples.

Results

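The genes described are 32 that encode enzymes and transporters of glycolysis, lactate handling and the pentose phosphate pathway, chosen by name, and their expression was compared in LoVo cells, a human line from a colorectal adenocarcinoma. A probe set that carries a single gene symbol in the platform annotation was present for 30 of the 32 genes, among 19775 genes with such a probe set, and 29 passed the filter on low signal, among 12344 genes tested. The study asked what serum starvation changes in these cells and how asymmetric dimethylarginine (ADMA), a methylated arginine that inhibits nitric oxide synthases, acts on starved cells. ADMA-treated cells (4 arrays) were kept for 96 h in DMEM with 0% serum and 10 μM ADMA, serum-starved cells (SS, 3 arrays) for 96 h in DMEM with 0% serum, and control cells (C, 3 arrays) for 96 h in DMEM with 10% fetal bovine serum. All groups shared the line, penicillin and streptomycin, and no growth factor was added to any medium. The labels call the replicates biological and say no more of how they were made, so the p-values measure only the spread between these samples of 1 line, which may be partly technical.

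Glycolysis splits glucose into pyruvate in the cytosol and yields ATP and NADH, and lactate dehydrogenase regenerates NAD+ by turning pyruvate into lactate, which leaves the cell through monocarboxylate transporters. The pentose phosphate pathway branches off at glucose 6-phosphate: its oxidative arm makes NADPH, and its non-oxidative arm interconverts sugar phosphates and supplies ribose for nucleotides. Most steps are served by isoenzymes from separate genes, and many colorectal cancer lines take up glucose and release lactate at a high rate even with oxygen present.

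Each value is a MAS 5.0 signal, 1 per probe set and array, given here on the log2 scale. A gene was represented by its brightest probe set, and a gene is said to have risen or fallen, or to be called, where limma gave a Benjamini-Hochberg adjusted p under 0.01 over the 12344 genes and the fold was at least 1.2, a log2 difference of 0.26. The authors scaled all 10 arrays to the same trimmed mean of 500.1, yet the median signal of an array was 91.9 to 98.1 with ADMA, 87.5 to 90.7 without serum alone and 60.7 to 73.1 in control cells. The signal of the 28S ribosomal RNA control lay at 1187 to 1631 in the ADMA group, 1783 to 3023 in the SS group and 488 to 566 in the C group, and ACTB had a 3′ to 5′ ratio of 1.019 to 1.047, 1.129 to 1.227 and 1.009 to 1.085 in the same order; their part in the differences was not tested. All 12 markers of colon epithelium lay above background on every array, as did 2 of 7 leukocyte, 1 of 8 fibroblast, 1 of 5 endothelial and 1 of 2 erythroid markers. The summed signal of the epithelial list was 167184 to 189682 in the ADMA group, 132364 to 151350 in the SS group and 94871 to 95623 in the C group, and 8 of its 12 genes rose and 1 fell in ADMA-treated against serum-starved cells. The summed signal of the leukocyte list was 1656 to 2322 in ADMA-treated, 4239 to 4937 in serum-starved and 638 to 962 in control cells, led by LYZ, which encodes lysozyme. The part of either list in the results was not tested. In bulk RNA a lower signal cannot tell fewer transcripts in each cell from fewer cells that express the gene.

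More of these genes fell than rose in serum-starved cells with the brightest probe set of each gene. Among the 20 genes with a tested probe set outside the _x_at and _s_at types 8 rose and 7 fell. That lay near the split of all genes tested with such probe sets, of which 2948 rose and 2345 fell. GPI, PFKL, PFKM, PFKFB3, ALDOA, PGAM1, LDHA, LDHB and TALDO1 had no such probe set and are left out there. Of the 29 genes tested, 12 fell (41.4%) in serum-starved against control cells, where 27.3% of all genes tested fell, and 6 rose (20.7%), where 30.3% of all genes rose. ADMA-treated cells differed from serum-starved cells in 14 genes: 9 rose (31%), against 15.7% of all genes tested, and 5 fell (17.2%), against 13.8% of all. The median log2 difference over the 29 genes was 0.13 for ADMA-treated minus serum-starved cells, where all tested genes had 0.03, and -0.26 for serum-starved minus control cells, where all tested genes had 0.07. The first of these medians was -0.02 after quantile normalization, 0.01 with arrays centred on their medians and -0.16 without _x_at and _s_at probe sets. In the last of these settings 2 genes rose and 5 fell in ADMA-treated against serum-starved cells, where 1287 of all genes tested rose and 1275 fell. Arrays of the 2 groups did not overlap for 10 higher and 6 lower genes in ADMA-treated against serum-starved cells, where 24.3% and 21.8% of all genes tested did so, and for 6 higher and 15 lower genes in serum-starved against control cells, where 37.9% and 33.3% did so. Both comparisons use the same 3 serum-starved arrays, so the values of 1 gene in the 2 comparisons are not independent of each other.

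**Figure D1:**
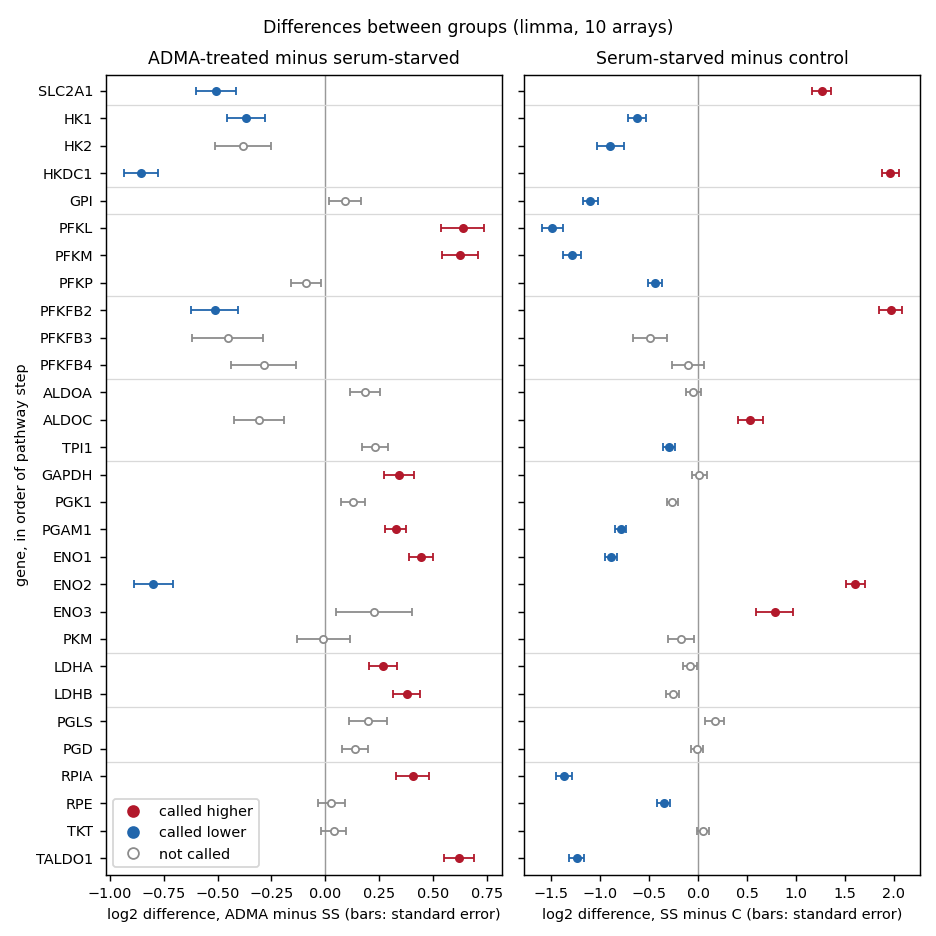
Log2 differences of the 29 genes tested, as deposited, for ADMA-treated minus serum-starved cells (left) and serum-starved minus control cells (right), with genes in the order of the pathway; points are limma estimates, bars are standard errors, filled red points were called higher, filled blue points called lower and open grey points not called. On the left panel PFKL, PFKM and TALDO1 are highest and HKDC1 and ENO2 lowest, on the right panel PFKFB2, HKDC1 and ENO2 are highest and PFKL and RPIA lowest, and LDHA, called higher, has a difference of -0.02 after quantile normalization.

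Promoter sequence is shown for 4 genes that moved opposite ways under starvation, HKDC1 and ENO2 among those that rose and PFKL and ENO1 among those that fell. Windows from 250 bases before to 50 bases after the annotated start were taken from RefSeq (build GRCh38.p14), which held 55 windows for 29 of the 32 genes, 19 of them with a single window. Both strands were searched for GGGCGG, the SP1 box, for TGACTCA, the AP-1 site, for ACGTG, the core of the hypoxia response element, and for the E-box CACGTG, which contains that core. The regions are chr10:69220082-69220381 on the plus strand for HKDC1, chr21:44299803-44300102 on the plus strand for PFKL, chr1:8878637-8878936 on the minus strand for ENO1 and chr12:6914330-6914629 on the plus strand for ENO2. Each sequence is written 5′ to 3′ on the strand of its gene, with every match in capitals.
HKDC1: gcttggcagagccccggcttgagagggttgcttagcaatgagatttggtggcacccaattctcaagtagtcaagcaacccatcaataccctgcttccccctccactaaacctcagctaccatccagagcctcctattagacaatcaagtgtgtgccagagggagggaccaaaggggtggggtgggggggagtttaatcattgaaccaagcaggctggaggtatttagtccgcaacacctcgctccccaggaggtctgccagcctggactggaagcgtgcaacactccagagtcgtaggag
PFKL: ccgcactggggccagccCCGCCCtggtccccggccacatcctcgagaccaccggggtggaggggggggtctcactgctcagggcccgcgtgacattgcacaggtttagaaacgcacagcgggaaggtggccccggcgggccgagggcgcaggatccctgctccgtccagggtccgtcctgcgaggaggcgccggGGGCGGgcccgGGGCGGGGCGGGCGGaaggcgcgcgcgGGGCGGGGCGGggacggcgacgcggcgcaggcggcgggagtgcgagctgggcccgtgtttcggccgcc
ENO1: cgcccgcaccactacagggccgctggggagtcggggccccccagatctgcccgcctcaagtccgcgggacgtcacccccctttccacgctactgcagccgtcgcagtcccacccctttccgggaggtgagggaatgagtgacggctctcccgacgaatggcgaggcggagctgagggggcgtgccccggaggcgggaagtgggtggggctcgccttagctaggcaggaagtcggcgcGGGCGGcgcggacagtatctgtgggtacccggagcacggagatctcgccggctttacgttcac
ENO2: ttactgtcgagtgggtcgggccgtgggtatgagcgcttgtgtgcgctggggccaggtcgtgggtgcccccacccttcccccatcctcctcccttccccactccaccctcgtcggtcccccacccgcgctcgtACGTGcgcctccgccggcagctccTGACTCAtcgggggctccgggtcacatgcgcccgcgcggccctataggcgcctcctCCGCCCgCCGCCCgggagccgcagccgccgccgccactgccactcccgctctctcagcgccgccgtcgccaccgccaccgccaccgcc

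The HKDC1 window held none of the 4 motifs, and the PFKL window held 7 matches of GGGCGG, some of which overlap. ENO1 had 1 GGGCGG, while ENO2 had 1 ACGTG that begins 118 bases before the start, 1 TGACTCA 94 bases before it and 2 GGGCGG on the other strand. Over all 55 windows of the genes, ACGTG was found in 32.7%, CACGTG in 10.9%, GGGCGG in 69.1% and TGACTCA in 5.45%, against 21.4%, 7.26%, 45% and 4.95% of the 35116 windows of the whole table. A match describes the letters of a window and not a bound site.

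Glucose enters these cells through facilitative transporters, and hexokinases trap it as glucose 6-phosphate. SLC2A1, which encodes the widely expressed transporter GLUT1, had log2 signals of 10.66, 10.61, 10.55 and 10.56 in ADMA-treated cells, 11.11, 11.19 and 11.01 in serum-starved cells and 9.60, 10.05 and 9.87 in control cells. The 3 groups did not overlap, with serum-starved cells highest and control cells lowest. SLC2A1 was 2.4-fold higher in serum-starved than in control cells (log2 difference 1.26, standard error 0.10, adjusted p = 2.66e-08) and 1.42-fold lower in ADMA-treated than in serum-starved cells (-0.51, standard error 0.09, adjusted p = 0.000444). SLC2A3, the neuronal transporter GLUT3, did not pass the filter: its probe set was under the background level on 4 of 4 ADMA, 2 of 3 SS and 2 of 3 C arrays, and no difference is given.

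The 3 hexokinase genes measured did not move together. HKDC1, which encodes a protein with a hexokinase domain, had log2 signals of 10.02, 9.92, 9.90 and 9.77 in ADMA-treated cells, 10.79, 10.82 and 10.66 in serum-starved cells and 8.77, 8.84 and 8.77 in control cells. Again serum-starved arrays were highest and control arrays lowest, with no overlap. It rose 3.9-fold in serum-starved cells (1.96, standard error 0.09, adjusted p = 7.43e-11) and was 1.81-fold lower in ADMA-treated cells than in serum-starved cells (-0.86, standard error 0.08, adjusted p = 1.31e-06). HK1, the hexokinase found in most tissues, fell in both comparisons, with 10.49, 10.79, 10.63 and 10.64 in ADMA-treated, 11.01, 10.86 and 11.14 in serum-starved and 11.57, 11.78 and 11.55 in control cells. Its difference was -0.63 (standard error 0.09, adjusted p = 2.76e-05) for serum-starved minus control and -0.37 (standard error 0.09, adjusted p = 0.00333) for ADMA-treated minus serum-starved cells. The second of these was no longer called without SS replicate 1 (-0.36, adjusted p = 0.0129) or SS replicate 3 (-0.30, adjusted p = 0.0199). HK2, the inducible hexokinase of muscle and many tumours, had 10.62, 10.29, 10.21 and 10.28 in ADMA-treated, 10.99, 10.60 and 10.60 in serum-starved and 11.44, 11.93 and 11.53 in control cells. All serum-starved arrays lay below all control arrays, while ADMA-treated and serum-starved arrays overlapped. HK2 fell by 0.90 (standard error 0.14, adjusted p = 4.13e-05) in serum-starved cells, and its difference between ADMA-treated and serum-starved cells, -0.38 (standard error 0.13, adjusted p = 0.0273), was not called, although it was without ADMA replicate 1 (-0.47, adjusted p = 0.00761). HKDC1 and HK1 are neighbours on chromosome 10, where HKDC1 ends at position 69267552 and HK1 begins at position 69270000 of GRCh38.p14, 2447 bases on. With arrays as deposited and under each of 3 other scalings, HKDC1 was higher and HK1 lower in serum-starved than in control cells.

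GPI, the isomerase that turns glucose 6-phosphate into fructose 6-phosphate, had 12.49, 12.67, 12.66 and 12.71 in ADMA-treated, 12.44, 12.53 and 12.65 in serum-starved and 13.49, 13.71 and 13.72 in control cells. Control arrays stood apart above the others, and the 2 serum-free groups overlapped. GPI was 2.14-fold lower in serum-starved than in control cells (-1.10, standard error 0.08, adjusted p = 1.3e-08), and the difference between ADMA-treated and serum-starved cells was 0.09 (standard error 0.07, adjusted p = 0.349).

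Phosphofructokinase commits the sugar to glycolysis, and its subunits come from 3 genes, all of which fell under starvation. PFKL, the liver-type subunit, had log2 signals of 10.20, 10.13, 10.54 and 10.22 in ADMA-treated cells, 9.70, 9.48 and 9.73 in serum-starved cells and 11.08, 11.23 and 11.06 in control cells. ADMA-treated cells lay between the other groups on every array. PFKL was 2.81-fold lower in serum-starved than in control cells (-1.49, standard error 0.11, adjusted p = 1.09e-08) and 1.56-fold higher in ADMA-treated than in serum-starved cells (0.64, standard error 0.10, adjusted p = 0.000132). PFKM, the muscle-type subunit, showed the same order without overlap, at 10.54, 10.61, 10.84 and 10.88 in ADMA-treated, 10.11, 10.03 and 10.14 in serum-starved and 11.41, 11.38 and 11.35 in control cells. It fell by 1.29 (standard error 0.09, adjusted p = 7.07e-09) with starvation and rose by 0.63 (standard error 0.08, adjusted p = 3.19e-05) with ADMA. PFKP, the platelet-type subunit, averaged 11.87 in ADMA-treated, 11.96 in serum-starved and 12.40 in control cells. PFKP fell by 0.44 (standard error 0.07, adjusted p = 9.2e-05) with starvation, and the ADMA minus SS difference of -0.09 (standard error 0.07, adjusted p = 0.321) was not called.

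The PFKFB genes encode enzymes that make and degrade fructose 2,6-bisphosphate, the main activator of phosphofructokinase. PFKFB2, known as the heart isoform, had 9.99, 9.88, 9.48 and 9.77 in ADMA-treated, 10.29, 10.36 and 10.24 in serum-starved and 8.34, 8.22 and 8.42 in control cells. No 2 groups overlapped. PFKFB2 rose 3.91-fold in serum-starved cells (1.97, standard error 0.12, adjusted p = 1.85e-09), and in ADMA-treated cells it was 1.43-fold lower than in serum-starved cells (-0.51, standard error 0.11, adjusted p = 0.00173), a call lost without SS replicate 2 (-0.48, adjusted p = 0.0113). PFKFB3, an isoform whose kinase activity is high, had 9.94, 10.34, 9.49 and 9.66 in ADMA-treated, 10.46, 10.20 and 10.26 in serum-starved and 10.59, 11.06 and 10.75 in control cells. Neither difference was called for PFKFB3, at -0.45 (standard error 0.17, adjusted p = 0.0383) for ADMA-treated minus serum-starved and -0.49 (standard error 0.18, adjusted p = 0.0226) for serum-starved minus control cells, but ADMA-treated cells were called below control cells (-0.95, standard error 0.17, adjusted p = 0.000156). The spread within the ADMA group was wide, and without ADMA replicate 2 the difference from serum-starved cells was -0.61 (adjusted p = 0.00232). PFKFB4 was called in no comparison, with means of 9.82 in ADMA-treated, 10.11 in serum-starved and 10.21 in control cells, and its difference between serum-starved and control cells, -0.10, turned to 0.09 without C replicate 2.

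**Figure D2:**
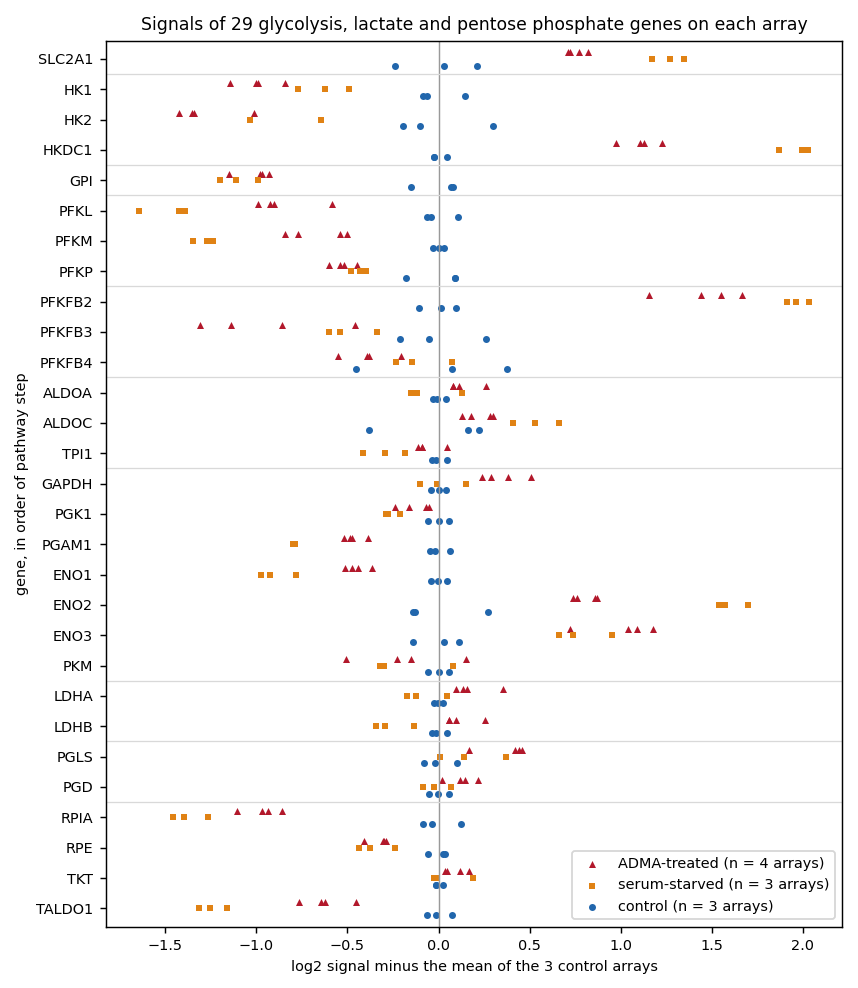
Log2 signal of each of the 29 genes on every array, minus the mean of the 3 control arrays for that gene (horizontal axis), with 1 row per gene in the order of the pathway: triangles are the 4 ADMA arrays, squares the 3 SS arrays and circles the 3 C arrays. For HKDC1, PFKFB2 and ENO2 all SS arrays lie to the right of all ADMA arrays, and for PFKL, PFKM, RPIA and TALDO1 all SS arrays lie to the left of all ADMA arrays, which lie to the left of all C arrays.

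Aldolase cleaves fructose 1,6-bisphosphate, and triose phosphate isomerase interconverts the products. ALDOA, the aldolase of muscle and most cells, averaged 14.38 in ADMA-treated, 14.20 in serum-starved and 14.25 in control cells. Neither the ADMA minus SS difference (0.18, standard error 0.07, adjusted p = 0.0447) nor the SS minus C difference (-0.05, standard error 0.07, adjusted p = 0.578) was called, though the first was without SS replicate 3 (0.27, adjusted p = 0.00242) and the second turned to 0.003 without SS replicate 1. ALDOC, the brain-type aldolase, had 11.33, 11.43, 11.28 and 11.45 in ADMA-treated, 11.56, 11.68 and 11.81 in serum-starved and 10.77, 11.31 and 11.37 in control cells. Serum-starved arrays lay above both other groups. ALDOC rose by 0.54 in serum-starved cells (standard error 0.13, adjusted p = 0.00148), and the ADMA minus SS difference of -0.31 (standard error 0.12, adjusted p = 0.0443) was not called. TPI1 had 14.06, 14.06, 14.04 and 14.20 in ADMA-treated, 13.86, 13.74 and 13.97 in serum-starved and 14.20, 14.14 and 14.12 in control cells, with serum-starved arrays below all others. It fell by 0.30 in serum-starved cells (standard error 0.07, adjusted p = 0.000995), not called without SS replicate 2 (-0.24, adjusted p = 0.00637), and its ADMA minus SS difference of 0.23 (standard error 0.06, adjusted p = 0.00685) missed the fold limit but passed it without SS replicate 3 (0.29, adjusted p = 0.0018). The TPI1 probe set 200822_x_at was called higher in ADMA-treated than in serum-starved cells (0.33, standard error 0.06, adjusted p = 0.000983). Its SS minus C difference was -0.53. The dimmer 210050_at was not called for ADMA minus SS (-0.05).

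The next enzymes lead from glyceraldehyde 3-phosphate to 2-phosphoglycerate. With the brightest probe set of each gene, PGAM1 alone of these was called in serum-starved against control cells as deposited. GAPDH, the dehydrogenase often used as a loading control, was represented by the 5′ GAPDH control probe set of the array, with 15.01, 14.92, 14.87 and 15.14 in ADMA-treated, 14.62, 14.53 and 14.78 in serum-starved and 14.67, 14.59 and 14.63 in control cells. All ADMA arrays lay above all other arrays. GAPDH was 1.27-fold higher in ADMA-treated than in serum-starved cells (0.34, standard error 0.07, adjusted p = 0.00125), although the difference was 0.004 after quantile normalization, and serum-starved minus control was 0.01 (standard error 0.08, adjusted p = 0.878), which became -0.01 without C replicate 2 and -0.06 without SS replicate 3. PGK1, which makes the first ATP of the pathway, averaged 13.93 in ADMA-treated, 13.80 in serum-starved and 14.06 in control cells. Its SS minus C difference of -0.262 had an adjusted p of 0.00129 and a fold just under the limit, so it was not called, but it was without C replicate 1 (-0.29) or SS replicate 3 (-0.29). The PGK1 probe sets 217356_s_at, 200737_at and 227068_at were called lower in serum-starved than in control cells. PGAM1, the phosphoglycerate mutase, had 13.17, 13.18, 13.14 and 13.27 in ADMA-treated, 12.86, 12.87 and 12.87 in serum-starved and 13.64, 13.61 and 13.72 in control cells. The 3 groups did not overlap and ADMA-treated cells lay between the others. PGAM1 fell by 0.79 with starvation (standard error 0.05, adjusted p = 6.57e-09) and was 0.33 higher with ADMA (standard error 0.05, adjusted p = 0.000127).

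Enolase, the next step, has 3 genes, and ENO1 fell in serum-starved cells whereas ENO2 and ENO3 rose. ENO1, the enolase of most cells, had log2 signals of 13.71, 13.78, 13.75 and 13.86 in ADMA-treated, 13.25, 13.30 and 13.44 in serum-starved and 14.22, 14.18 and 14.27 in control cells. ENO2, the neuronal enolase, had 11.23, 11.24, 11.13 and 11.11 in ADMA-treated, 12.07, 11.94 and 11.91 in serum-starved and 10.24, 10.64 and 10.23 in control cells. For both genes the ADMA arrays lay between the other groups without overlap, with the order of serum-starved and control cells reversed. ENO1 was 1.86-fold lower in serum-starved than in control cells (-0.89, standard error 0.06, adjusted p = 7.43e-09) and 1.36-fold higher in ADMA-treated than in serum-starved cells (0.44, standard error 0.06, adjusted p = 2.65e-05). ENO2 was 3.04-fold higher in serum-starved than in control cells (1.60, standard error 0.10, adjusted p = 1.94e-09) and 1.74-fold lower in ADMA-treated than in serum-starved cells (-0.80, standard error 0.09, adjusted p = 8.5e-06). ENO3, the muscle enolase, had 7.49, 7.81, 7.95 and 7.86 in ADMA-treated, 7.43, 7.72 and 7.51 in serum-starved and 6.80, 6.63 and 6.88 in control cells. Both serum-free groups lay above control cells and overlapped each other. ENO3 rose by 0.78 with starvation (standard error 0.19, adjusted p = 0.00199), a call lost without SS replicate 2 (0.70, adjusted p = 0.012), and its ADMA minus SS difference of 0.23 (standard error 0.18, adjusted p = 0.332) was not called.

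ENO2, ENO3, ALDOC and PFKM are known from neurons or muscle, so 8 other markers of these tissues were read beside them. Of the 8, 2 lay above background on every array, and the summed signal of the list was 5618 to 5940 in ADMA-treated, 4690 to 5096 in serum-starved and 6955 to 8782 in control cells. The neuronal tubulin TUBB3 carried most of it and fell by 0.72 (standard error 0.08, adjusted p = 8.44e-07) in serum-starved cells, whereas SYP was under background on 3 of 4 ADMA, 3 of 3 SS and 2 of 3 C arrays, and CHGA on 4 of 4, 3 of 3 and 2 of 3. The part of other cells in these results was not tested. On chromosome 12, TPI1, which fell in serum-starved cells, ends 43.6 kb before ENO2, which rose, begins.

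Pyruvate kinase and lactate dehydrogenase close the pathway. PKM, the pyruvate kinase of most cells and tumours, had 13.04, 12.76, 13.42 and 13.12 in ADMA-treated, 12.95, 12.97 and 13.35 in serum-starved and 13.21, 13.27 and 13.33 in control cells. The groups overlapped, and PKM was called in neither comparison; its ADMA minus SS difference of -0.01 became 0.12 without SS replicate 3, 0.01 without ADMA replicate 1 and 0.10 without ADMA replicate 2. LDHA, which favours lactate formation, had 14.59, 14.61, 14.55 and 14.81 in ADMA-treated, 14.33, 14.28 and 14.50 in serum-starved and 14.45, 14.48 and 14.43 in control cells. ADMA-treated arrays lay above all others and the other groups overlapped. LDHA was 1.2-fold higher in ADMA-treated than in serum-starved cells as deposited (0.27, standard error 0.07, adjusted p = 0.00504) but -0.02 after quantile normalization, and was not called without SS replicate 1 (0.25, adjusted p = 0.0262), SS replicate 2 (0.22, adjusted p = 0.0307) or ADMA replicate 4 (0.21, adjusted p = 0.01). LDHB, the subunit that favours pyruvate formation, had 14.47, 14.43, 14.43 and 14.63 in ADMA-treated, 14.08, 14.03 and 14.24 in serum-starved and 14.42, 14.34 and 14.36 in control cells. Serum-starved arrays lay below all others. LDHB was 1.3-fold higher in ADMA-treated than in serum-starved cells (0.38, standard error 0.06, adjusted p = 0.000252), and its SS minus C difference of -0.259 (standard error 0.07, adjusted p = 0.00344) lay just under the fold limit, passing it without C replicate 2 (-0.28), C replicate 3 (-0.27) or SS replicate 3 (-0.32). The other LDHB probe set, 201030_x_at, was called lower in serum-starved than in control cells (-0.55, standard error 0.07, adjusted p = 7.66e-06). The lactate exporters SLC16A1 and SLC16A3, known as MCT1 and MCT4, were not analysed here.

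In the pentose phosphate pathway 3 of the 4 genes of the non-oxidative arm fell in serum-starved cells, and neither gene of the oxidative arm was called there. PGLS, the lactonase of the oxidative arm, averaged 12.54 in ADMA-treated, 12.34 in serum-starved and 12.17 in control cells, and neither its ADMA minus SS difference (0.20, adjusted p = 0.0821) nor its SS minus C difference (0.17, adjusted p = 0.13) was called. PGD, an NADPH-producing dehydrogenase of that arm, averaged 13.02, 12.88 and 12.89 in the same order and was called in no comparison, and its SS minus C difference of -0.01 became 0.02 without C replicate 3 and 0.03 without SS replicate 2. RPIA, which makes ribose 5-phosphate, had 11.36, 11.28, 11.25 and 11.11 in ADMA-treated, 10.82, 10.95 and 10.76 in serum-starved and 12.13, 12.34 and 12.18 in control cells. The groups were apart on all arrays, with ADMA-treated cells between the others. RPIA was 2.58-fold lower in serum-starved than in control cells (-1.37, standard error 0.08, adjusted p = 1.39e-09) and 1.32-fold higher in ADMA-treated than in serum-starved cells (0.41, standard error 0.08, adjusted p = 0.000539).

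TALDO1, the transaldolase that links the pentose phosphates back to glycolysis, followed the same order, with 12.41, 12.53, 12.55 and 12.72 in ADMA-treated, 11.92, 11.86 and 12.01 in serum-starved and 13.11, 13.16 and 13.25 in control cells. No array of 1 group reached into another. TALDO1 was 2.36-fold lower in serum-starved than in control cells (-1.24, standard error 0.08, adjusted p = 2.06e-09) and 1.54-fold higher in ADMA-treated than in serum-starved cells (0.62, standard error 0.07, adjusted p = 8.76e-06). RPE, the epimerase, fell by 0.35 with starvation (standard error 0.07, adjusted p = 0.000314) and had an ADMA minus SS difference of 0.03 (standard error 0.06, adjusted p = 0.763), which became -0.02 without SS replicate 2. TKT, the transketolase, averaged 13.65 in ADMA-treated, 13.61 in serum-starved and 13.56 in control cells and was called in no comparison, and its SS minus C difference of 0.05 became -0.02 without SS replicate 3.

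ADMA-treated cells, though free of serum, were also compared with control cells. Of the 29 genes, 7 rose (24.1%) and 12 fell (41.4%) in ADMA-treated against control cells, where 26.6% and 23.2% of all genes tested did so. Arrays of the 2 groups did not overlap for 11 higher and 12 lower genes, where 32.9% and 29% of all genes tested did so. Among the genes that rose, PFKFB2 was 2.74-fold, HKDC1 2.15-fold, ENO3 2.01-fold, ENO2 1.75-fold and SLC2A1 1.69-fold higher than in control cells. HK2 was 2.43-fold, GPI 2.01-fold, HK1 1.99-fold, RPIA 1.95-fold, PFKL 1.8-fold, PFKM 1.58-fold and TALDO1 1.54-fold lower. GAPDH (0.36, standard error 0.07, adjusted p = 0.000454) and PGLS (0.37, standard error 0.09, adjusted p = 0.00211) were called higher in ADMA-treated than in control cells as deposited, while after centring arrays on their medians the differences were -0.15 and -0.14, and PGLS was not called without C replicate 3 (0.33, adjusted p = 0.0136). The remaining genes called lower in ADMA-treated cells were PFKP (-0.53), PFKFB3 (-0.95), PGAM1 (-0.47), ENO1 (-0.45) and RPE (-0.32). With arrays centred on their medians SLC2A1 (0.25), ENO2 (0.30) and ENO3 (0.50) were no longer called higher.

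For 16 of the 29 genes more than 1 probe set passed the filter, 50 probe sets in all, and they did not always move together. Every passing probe set was called in the same direction in serum-starved against control cells for HK2, HKDC1, PFKL, SLC2A1 and TPI1, and in ADMA-treated against serum-starved cells for GAPDH, HKDC1, LDHB and PFKL. The 6 GAPDH probe sets gave ADMA minus SS differences of 0.28 to 0.50. PKM was the widest split: the probe set used was not called in serum-starved cells, at -0.18 (standard error 0.13), while its other probe set, 213700_s_at, averaged 10.46 in ADMA-treated, 10.65 in serum-starved and 7.45 in control cells, a rise of 3.20 (standard error 0.10, adjusted p = 5.6e-12). ENO1 was called in both directions, since probe set 240258_at was 1.01 higher in serum-starved than in control cells (standard error 0.30, adjusted p = 0.00838) where the 3 other probe sets fell. For HK2, 239410_at was 1.79 higher in ADMA-treated than in serum-starved cells (standard error 0.28, adjusted p = 0.000227), against -0.38 for the probe set used. For TKT, 228205_at rose by 0.81 in serum-starved cells (standard error 0.18, adjusted p = 0.00156) and was 1.09 lower in ADMA-treated cells (standard error 0.17, adjusted p = 0.00025). The second SLC2A1 probe set had a smaller ADMA minus SS difference, -0.22 (standard error 0.27, adjusted p = 0.575), which was not called. Neither of the other PFKFB2 probe sets was called for ADMA minus SS, at -0.36 (standard error 0.17, adjusted p = 0.119) and 0.19 (standard error 0.24, adjusted p = 0.582), and the second of them was not called for SS minus C either (0.75, adjusted p = 0.0182). For ALDOA, 238996_x_at fell by 0.66 in ADMA-treated against serum-starved cells (standard error 0.10, adjusted p = 0.000149), against 0.18 for the probe set used. All 4 further PGK1 probe sets lay lower in serum-starved than in control cells, by 0.28 to 1.36. Of these 217356_s_at (-0.67), 200737_at (-0.84) and 227068_at (-1.36) were called, and 217383_at (-0.28) was not. Some of the probe sets that went against the one used were dim. HK2 239410_at, ENO1 240258_at and TKT 228205_at had mean log2 signals of 6.72, 6.75 and 7.63, where the filter lay at 6.25. The probe sets used for these genes had 10.85, 13.78 and 13.61. The _x_at and _s_at probe sets among those named can match several transcripts by design, and what each probe set binds was not tested.

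**Figure D3:**
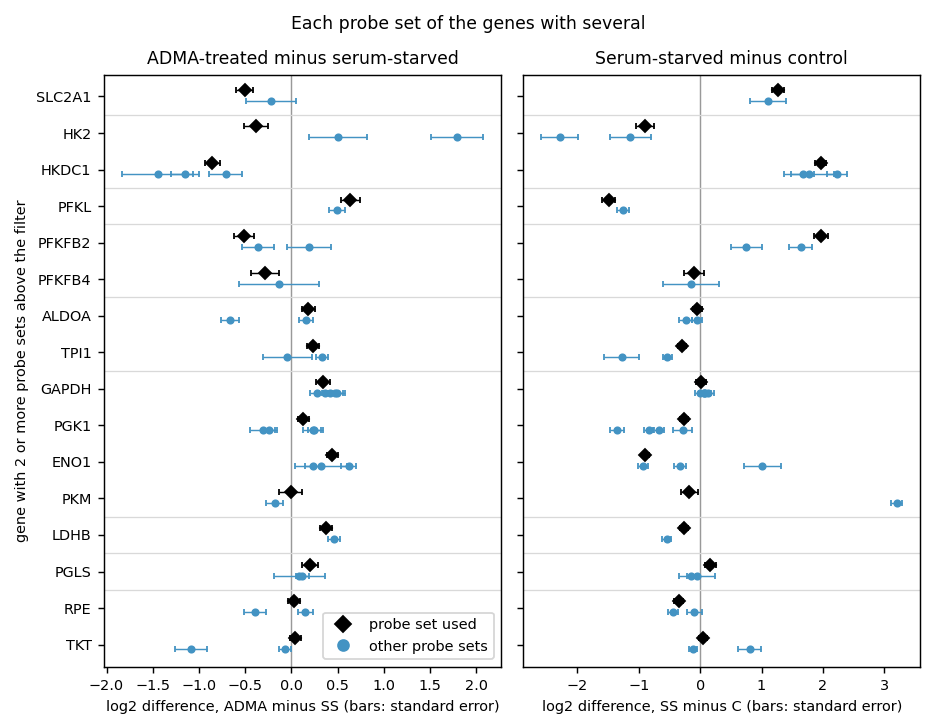
Log2 differences of each probe set above the filter for the 16 genes with several, for ADMA-treated minus serum-starved cells (left) and serum-starved minus control cells (right), with standard errors as bars; black diamonds are the probe sets used for the gene and blue circles the others. One PKM probe set lies at 3.20 on the right panel, away from the probe set used, and 1 HK2 probe set lies at 1.79 on the left panel, opposite to the probe set used. That HK2 probe set, 239410_at, had a mean log2 signal of 6.72, against 10.85 for the probe set used.

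Directions depended in part on how arrays were scaled. Serum-starved minus control, the array medians differed by 0.39 and the spike-in control probe sets by 0.21, and ADMA-treated minus serum-starved by 0.12 and -0.01. Centring arrays on their medians took the median difference of all tested genes from 0.07 to -0.32 for serum-starved minus control cells, with 2013 genes higher and 5184 lower in place of 3738 and 3372, and the 29 genes then had 4 higher and 21 lower in place of 6 and 12. Relative to that shift, SLC2A1, HKDC1, PFKFB2 and ENO2 were still called higher in serum-starved cells, and ALDOC (0.15) and ENO3 (0.39) were not. With arrays centred on spike-ins 4 of the 29 genes were higher and 16 lower, where all tested genes had 2701 higher and 4337 lower. After quantile normalization 5 were higher and 12 lower, where all tested genes had 3363 and 3533. For ADMA-treated minus serum-starved cells the counts were 4 higher and 7 lower with arrays centred on their medians, where all tested genes had 901 higher and 2093 lower in place of 1935 and 1704. They were 5 and 5 after quantile normalization, with 1870 and 1730 of all tested genes, and 9 and 5 with spike-ins, with 1927 and 1484. The 4 genes called higher with ADMA under all of these scalings were PFKL, PFKM, ENO1 and TALDO1, and the 5 genes called lower were SLC2A1, HK1, HKDC1, PFKFB2 and ENO2, while PGAM1, LDHA, LDHB and GAPDH were not called after quantile normalization, nor RPIA with arrays centred on their medians (0.29).

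**Figure D4:**
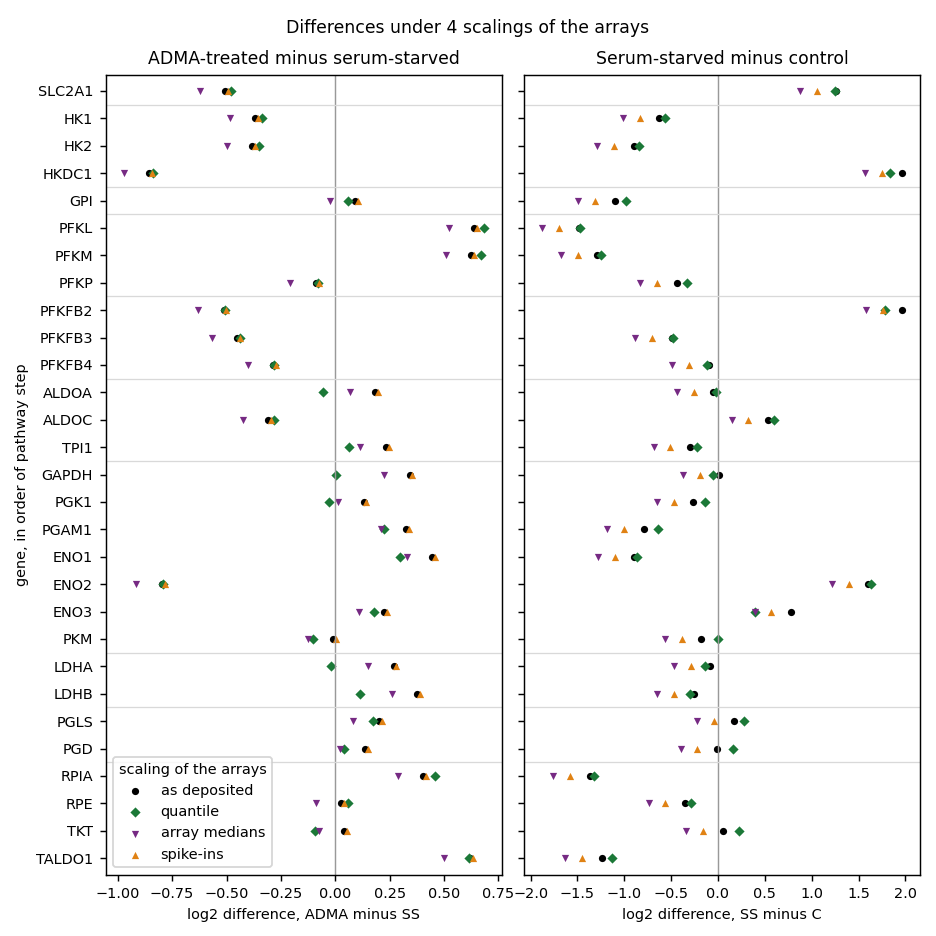
Log2 differences of the 29 genes for ADMA-treated minus serum-starved cells (left) and serum-starved minus control cells (right) under 4 scalings of the arrays: as deposited (black circles), quantile normalization (green diamonds), arrays centred on their median (purple triangles pointing down) and arrays centred on spike-in probe sets (orange triangles pointing up). Centring on medians moves every gene to the left, and quantile normalization moves GAPDH to 0.004 and LDHA to -0.02 on the left panel.

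Other genes of the pathway were read from lists. Their counts are read against the shares of all genes tested, 15.7% higher and 13.8% lower for ADMA-treated against serum-starved cells and 30.3% higher and 27.3% lower for serum-starved against control cells. Of 8 further glycolytic isoenzyme genes tested, 2 rose and 2 fell in ADMA-treated against serum-starved cells, and 1 rose and 3 fell in serum-starved against control cells (median difference -0.45). PGAM5, a mitochondrial phosphatase named for its likeness to phosphoglycerate mutase, fell by 2.09 with starvation (standard error 0.10) and was 0.54 higher with ADMA (standard error 0.09). PGM2, a phosphopentomutase, fell by 1.17 with starvation (standard error 0.10). TIGAR, a p53-induced phosphatase that lowers fructose 2,6-bisphosphate, averaged 10.88 in ADMA-treated, 11.72 in serum-starved and 11.13 in control cells, a fall of 0.84 with ADMA (standard error 0.06).

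Among 7 other pentose phosphate genes tested, 3 rose and none fell in ADMA-treated against serum-starved cells, and 1 rose and 5 fell in serum-starved against control cells (median difference -0.65). PRPS2 and PRPS1, the synthetases that turn ribose 5-phosphate into phosphoribosyl pyrophosphate for nucleotides, fell by 1.95 (standard error 0.06) and 1.45 (standard error 0.08) with starvation. PRPS2 averaged 10.77 in ADMA-treated, 10.12 in serum-starved and 12.07 in control cells, a rise of 0.65 with ADMA (standard error 0.06). GLYCTK, a glycerate kinase, was 0.57 higher with ADMA (standard error 0.16).

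Sugar and monocarboxylate transport gave 4 higher and 2 lower of 15 genes in ADMA-treated against serum-starved cells, and 4 higher and 5 lower in serum-starved against control cells. SLC2A13, a proton-coupled inositol transporter of the glucose transporter family, rose by 2.14 with starvation (standard error 0.11), and the aromatic amino acid transporter SLC16A10 fell by 1.82 (standard error 0.17). SLC2A5, the fructose transporter, was 1.30 higher with ADMA than in serum-starved cells (standard error 0.26), where 1 of 3 arrays lay under background, and SLC16A9, a carnitine and urate transporter, was 1.28 higher (standard error 0.10). Of 17 gluconeogenesis and glycogen genes, 3 rose and 1 fell with ADMA, and 3 rose and 4 fell with starvation. PYGB, the brain-type glycogen phosphorylase, rose by 1.60 with starvation (standard error 0.08), and SLC37A4, the glucose 6-phosphate transporter of the endoplasmic reticulum, fell by 1.42 (standard error 0.14). FBP1, the gluconeogenic fructose bisphosphatase, was 0.78 higher with ADMA (standard error 0.08), and GYG2, a glycogenin that primes glycogen, 0.66 higher (standard error 0.17).

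Of 19 genes at the pyruvate entry switch, glycerol 3-phosphate and side branches, 4 rose and 4 fell in ADMA-treated against serum-starved cells, and 5 rose and 9 fell in serum-starved against control cells. The galactokinase GALK1 fell by 1.84 (standard error 0.33) and the ketohexokinase KHK by 1.70 (standard error 0.16) with starvation. HAGH, the glyoxalase that ends methylglyoxal breakdown, fell by 0.76 with ADMA (standard error 0.07), and PDK3, a kinase that inhibits pyruvate dehydrogenase, was 0.76 higher (standard error 0.07). Of 22 regulators and targets linked to glycolytic transcription, 2 rose and 6 fell with ADMA, and 8 rose and 3 fell with starvation. VEGFA, the angiogenic growth factor, averaged 12.61 in ADMA-treated, 13.49 in serum-starved and 10.83 in control cells, a rise of 2.67 with starvation (standard error 0.08) and a fall of 0.88 with ADMA (standard error 0.07). BHLHE40, a repressor induced by hypoxia, rose by 1.87 with starvation (standard error 0.09), and NDRG1, a gene induced by stress and hypoxia, fell by 0.93 with ADMA (standard error 0.11). Other genes of this list differed in direction with starvation. ADM (0.59) and ANKRD37 (0.49) rose, BNIP3 (-0.46) fell, and HIF1A (0.09), EGLN3 (-0.57) and P4HA1 (-0.07) were not called.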

How the data were processed

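RNA of 10 LoVo cultures was hybridized to Affymetrix HG-U133 Plus 2.0 arrays. The deposited values are linear MAS 5.0 intensities that the authors made for each probe set, and they scaled every array to the same 2% trimmed mean. Replicates were not pooled, and detection calls are not given in the sources used here. With 3 or 4 arrays in a group, their number sets how precise a value can be.

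Here log2 was taken with no pseudocount and no further normalization. Of 54675 probe sets, 41097 carry 1 gene symbol, 1801 several and 11777 none, and a gene was named only from a probe set with 1 symbol, as the brightest of these over the 10 arrays. Genes whose mean signal reached 76.2, the 50th percentile of non-control probe sets, were tested, which left 12344 of 19775. Groups were compared with limma 3.58.1 (lmFit, eBayes with an intensity trend) in R 4.3.3, with all 10 arrays in the same model and p-values adjusted by Benjamini-Hochberg. The study's methods name SAM, which was not run here, and its thresholds were kept: 0.01 for the adjusted p and 1.2 for the fold. The background level of an array was the 95th percentile of its 27 Bacillus control probe sets. The limma fit was tried on simulated data with independent noise, for serum-starved against control cells only. The other steps were not simulated. Sequences came from RefSeq promoters on GRCh38.p14, and plots were made in matplotlib 3.10.9 under Python 3.11.15.

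All 32 genes are named. From each list of other pathway genes the 2 called genes with the greatest absolute difference in SS minus C and in ADMA minus SS were named. ADM, ANKRD37, BNIP3, HIF1A, EGLN3 and P4HA1 were named in addition, outside that rule. The genes, the lists and this rule were chosen with earlier results of these data known. Alternatives were quantile normalization, centring on array medians, other filters, no trend, the arrays of the 2 groups alone, other thresholds, other probe sets per gene, a pseudocount of 16, signals under background taken at it, a block for the replicate number, and fits without 1 array each. Centring on 18 spike-in probe sets was an alternative chosen after seeing the data.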

Additional observations from a re-analysis of the deposited data

Results flagged for a closer look

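In 4 of the 30 genes 1 of the 4 ADMA arrays stood apart: its gap to the nearest array, divided by the range of the group, was above Dixon's critical value for 4 samples, which chance exceeds in about 1 in 20 groups. In ALDOA the ratio was 0.838, from ADMA replicate 4 at 14.51 where the others lay at 14.33 to 14.36. In TPI1 it was 0.846, again from ADMA replicate 4, at 14.20 where the others lay at 14.04 to 14.06. In PGLS it was 0.877, from ADMA replicate 1 at 12.34 where the others lay at 12.59 to 12.63. In RPE it was 0.85, from ADMA replicate 3 at 10.98 where the others lay at 11.08 to 11.10.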

How the results depend on the processing

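Counts of higher and lower genes moved most with the threshold, the centring and the choice of probe set. With a fold of at least 2 (limma, adjusted p under 0.01), ADMA-treated against serum-starved cells had 0 higher and 0 lower genes of the 29. All tested genes had 231 and 157 there. ADMA-treated against control cells had 3 higher and 2 lower, with 1133 and 543 of all tested genes. Serum-starved against control cells had 4 higher and 5 lower, with 1611 and 1205 of all tested genes. With an adjusted p under 0.05 and no minimum fold, 11 genes were higher and 8 lower in ADMA-treated than in serum-starved cells. All tested genes had 2879 and 2545 there. With arrays centred on their medians, 4 genes were higher and 7 lower in ADMA-treated than in serum-starved cells, with 901 and 2093 of all tested genes. In ADMA-treated against control cells 2 were then higher and 21 lower, with 1209 and 6101 of all tested genes. In serum-starved against control cells 4 were higher and 21 lower, with 2013 and 5184 of all tested genes. Quantile normalization left 5 higher and 5 lower in ADMA-treated than in serum-starved cells, with 1870 and 1730 of all tested genes. Without _x_at and _s_at probe sets 20 genes were tested. In ADMA-treated against serum-starved cells 2 were higher and 5 lower, with 1287 and 1275 of all tested genes. In ADMA-treated against control cells 6 were higher and 7 lower, with 2581 and 1986 of all. In serum-starved against control cells 8 were higher and 7 lower, near the split of all tested genes, 2948 and 2345. The larger count thus changed sides in ADMA-treated against serum-starved and in serum-starved against control cells, but over a different set of genes. GPI, PFKL, PFKM, PFKFB3, ALDOA, PGAM1, LDHA, LDHB and TALDO1 had no probe set outside the _x_at and _s_at types and were left out. ENO1 and TKT were represented there by 240258_at and 228205_at, with mean log2 signals of 6.75 and 7.63. The brightest probe sets of ENO1 and TKT had 13.78 and 13.61. With the probe set of second highest mean 26 genes were tested. Of these 11 were higher and 3 lower in ADMA-treated than in serum-starved cells, with 1463 and 1068 of all tested genes. Leaving out each array in turn kept all 6 counts within 1.5 times. ADMA-treated against serum-starved cells had 8 to 11 higher and 4 to 6 lower, with 1545 to 1903 and 1294 to 1662 of all tested genes. Serum-starved against control cells had 5 to 6 higher and 11 to 14 lower, with 3456 to 3569 and 3104 to 3237 of all tested genes.

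Several differences changed sign, mostly of genes that were not called. With probe sets averaged per gene, ADMA minus SS was 0.637 for HK2, 0.23 for PFKP, -0.107 for ALDOA, -0.32 for PGD, -0.374 for TKT and -0.022 for RPE, ADMA minus C was 0.276 for PFKP and 0.118 for ENO1, and SS minus C was 0.045 for PFKP and 1.512 for PKM. These averages also took in probe sets below the filter on low signal. For PFKP such a probe set had a mean log2 signal of 6.04, and for PGD they had 5.42 and 4.98. With the second probe set, ADMA minus SS was 1.794 for HK2 and -0.071 for TKT, ADMA minus C -0.029 for PGLS, and SS minus C 3.2 for PKM, -0.146 for PGLS and -0.109 for TKT. Without _x_at and _s_at probe sets, ADMA minus SS was -0.046 for TPI1, -0.244 for PGK1 and -1.091 for TKT, ADMA minus C 1.332 for ENO1 and -0.029 for PGLS, and SS minus C 1.015 for ENO1 and -0.146 for PGLS. Quantile normalization gave ADMA minus SS of -0.058 for ALDOA, -0.028 for PGK1, -0.02 for LDHA and -0.094 for TKT, ADMA minus C of -0.047 for GAPDH, and SS minus C of -0.051 for GAPDH and 0.163 for PGD. Centring on array medians gave ADMA minus SS of -0.025 for GPI, -0.077 for TKT and -0.089 for RPE, ADMA minus C of -0.149 for GAPDH and -0.138 for PGLS, and SS minus C of -0.375 for GAPDH, -0.222 for PGLS and -0.339 for TKT. Centring on spike-ins gave ADMA minus SS of 0.004 for PKM, and SS minus C of -0.197 for GAPDH, -0.043 for PGLS and -0.16 for TKT. Calls were also lost without the intensity trend for GAPDH (adjusted p = 0.0102), LDHA (0.0244) and HK1 (0.0148) in ADMA minus SS and for PGLS (0.0124) in ADMA minus C. The cause was not tested.

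Over the arrays left out in turn, SS minus C turned sign for PFKFB4 (-0.326 to 0.089), ALDOA (-0.137 to 0.003), GAPDH (-0.055 to 0.072), PGD (-0.05 to 0.027) and TKT (-0.017 to 0.088), and ADMA minus SS for PKM (-0.12 to 0.122) and RPE (-0.016 to 0.084).

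No pairing of the samples by replicate number was seen in the signals. The labels do not say whether a number marks a pair, and correlations this weak cannot settle it. Deviations from the group mean correlated at -0.074 to 0.102 for arrays of the same number (9 pairs) and at -0.114 to 0.139 for other numbers (24 pairs), and 3 of 9 arrays correlated best with one of their own number. With the replicate number as a block, 8 genes were higher and 4 lower in ADMA-treated against serum-starved cells, where LDHA (0.212, adjusted p = 0.0156) and HK1 (-0.37, adjusted p = 0.0107) were not called, 7 higher and 13 lower in ADMA-treated against control cells, and 6 higher and 12 lower in serum-starved against control cells. All tested genes had 1644 higher and 1439 lower, 3163 and 2779, and 3714 and 3345 in the same order.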
